A study of Mus musculus with 6 samples.

Results

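The large ribosomal subunit of the cytosol is built from ribosomal RNA and many proteins, most of them encoded by genes named Rpl, and by Rplp for the acidic stalk. This subunit forms the peptide bonds of every new protein, and activated T cells make many ribosomes before they divide. The messenger RNAs of these proteins begin with a run of pyrimidines, the terminal oligopyrimidine (TOP) tract, through which the growth kinase mTOR and the protein LARP1 control their translation and storage. The members described here were the gene rows named Rpl or Rplp followed by a digit, without rows marked as copies or pseudogenes and without Rpl22, Rpl39, their paralogs Rpl22l1 and Rpl39l, and the paralogs Rpl7l1, Rpl3l and Rpl10l. They numbered 47 of 23505 gene rows. Of these, 46 had enough counts to be tested. The untested member was Rpl32l, a copy with 1 annotated exon that had 1 count in ConA replicate 2 and 0 in each of the other 5 libraries.

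The RNA came from CD4+ T cells of the liver of wild type mice, sorted by flow cytometry as CD3+ and CD4+ cells without CD8 or NK1.1. All mice received the lectin concanavalin A (ConA), which causes a hepatitis driven by T cells. The ConA group was gavaged with phosphate-buffered saline and the ConA+SIM group with simvastatin, a statin that blocks mevalonate synthesis, at 30 mg/kg. Gavage was daily for 5 days before ConA, 1 h before it and 24 h after it. Each group held 3 libraries, and no group without ConA was among the samples, so every value compares 2 groups of ConA-treated mice. The sources used here do not give the ConA dose, the strain, age or sex of the mice, or whether a library came from 1 mouse or a pool. P-values therefore measure the spread between these libraries, which may be technical.

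Total counts were 17549429 to 25031862 per library. Levels are given in CPM, the count relative to a library total adjusted by trimmed means (TMM). The markers that define the sort were present. Cd4 ran from 485 to 766 CPM in ConA and from 441 to 562 CPM in ConA+SIM. Cd3e ran from 154 to 409 and from 156 to 295 CPM. Cd3g ran from 433 to 645 CPM in ConA and from 786 to 993 CPM in ConA+SIM, without overlap. It was not the only T cell gene whose groups separated in this direction. The 8 T cell genes found in the table summed to 2478 to 3821 CPM in ConA and 3613 to 3964 CPM in ConA+SIM. Markers of other cells were present too. The summed level of 6 erythroid genes was 43.8 to 115 CPM in ConA and 229 to 343 CPM in ConA+SIM. That of 10 NK cell genes, several of which effector T cells also express, was 309 to 424 and 778 to 845 CPM, with Ncr1 and Klra8 at 0. For 6 neutrophil genes it was 250 to 390 and 557 to 864 CPM, with Ly6g at 0. The 10 macrophage genes summed to 949 to 2193 and 245 to 1214 CPM, 7 sinusoidal endothelial genes to 215 to 1652 and 293 to 541 CPM, and 5 B cell genes to 99.1 to 1054 and 305 to 722 CPM. The 8 hepatocyte genes summed to 87.9 to 192 and 148 to 224 CPM, and the 2 CD8 T cell genes to 4.72 to 33.1 and 26.3 to 54.1 CPM. Hbb-bs was the only gene in any of these 9 marker lists that passed the test, and the part these cells play in the values below was not tested. ConA+SIM replicate 2 stood apart, with no count for 18.4% of tested genes, a share that was 2.76% to 9.98% elsewhere.

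The effect of simvastatin on these cells was read from ConA+SIM over ConA. Of 46 tested members, 18 rose, 0 fell and 28 did not pass (edgeR quasi-likelihood test, adjusted p under 0.05 over all genes). Over all 10509 tested genes, 0.542% rose and 0 fell by the same rule. At an unadjusted p under 0.05, 33 members were higher and 0 lower, against 5.31% and 3.54% of all tested genes. The median log2 fold change was 0.82 over the tested members and -0.04 over all tested genes, and 44 members were above 0 against 48% of all tested genes. In 32 members the 3 ConA+SIM values all lay above the 3 ConA values, and in 0 members below. Over all tested genes, 9.18% were separated upward in this way and 8.57% downward. In bulk samples, a shift in the kinds of cells sorted and a change in RNA per cell cannot be told apart.

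The members' summed share of all counts was 4.74%, 5.13% and 5.67% in the ConA libraries, by replicate number, and 8.26%, 8.56% and 7.80% in those of ConA+SIM. The groups did not overlap. The means were 5.18 ± 0.47% and 8.20 ± 0.38% (SD, n = 3 per group). The 33 small subunit genes took 3.65% to 4.29% and 6.20% to 7.35%. The ratio of large to small subunit counts was 1.28 to 1.32 in ConA and 1.16 to 1.26 in ConA+SIM. The share in ConA+SIM was higher by 3.02 percentage points for the large subunit and by 2.88 for the small, which started from a lower share.

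**Figure D1:**
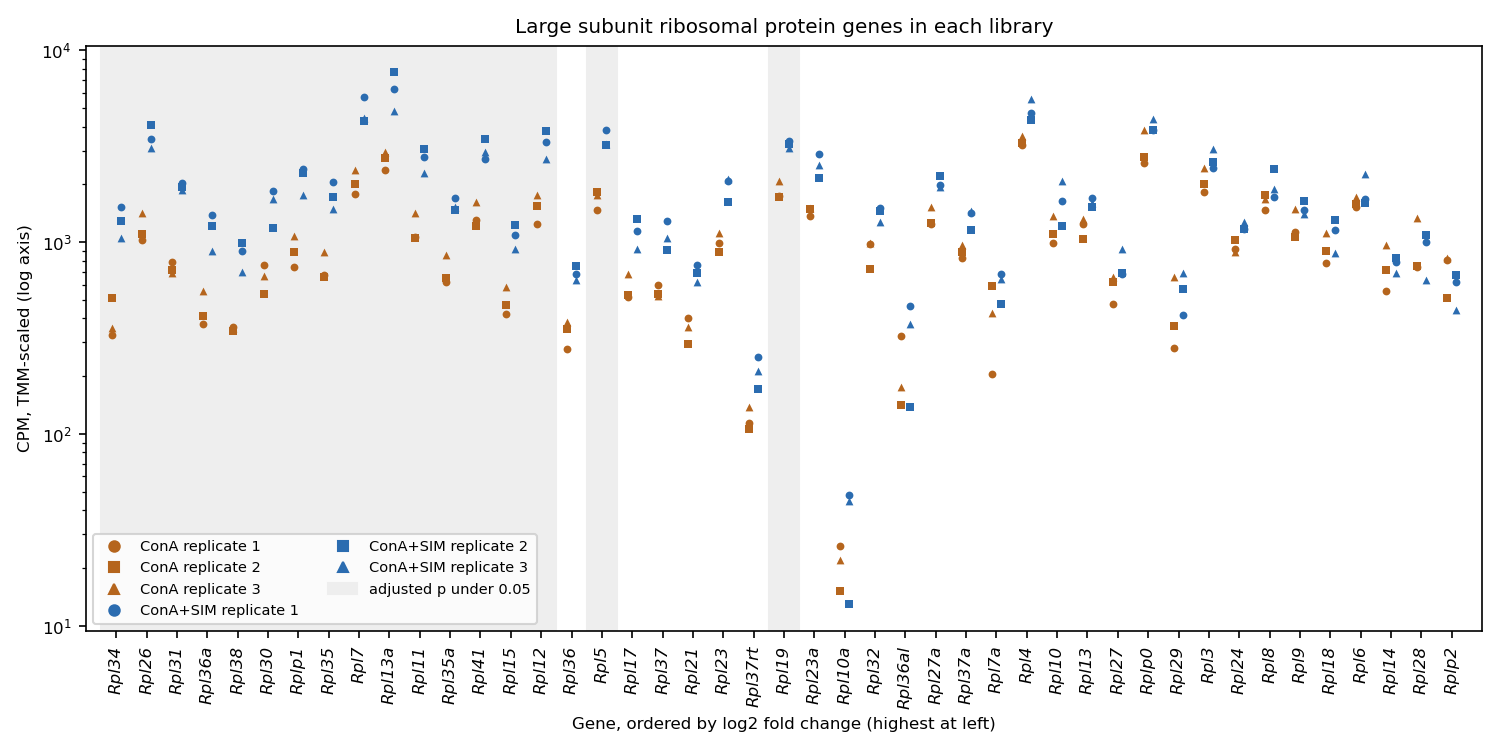
TMM-scaled CPM on a log axis for the tested members named in the text in each of the 6 libraries, ordered by log2 fold change from left to right, with ConA in brown, ConA+SIM in blue and a grey band behind genes with an adjusted p under 0.05. The blue points lie above the brown ones in most genes, and the 14 genes whose groups overlap are mostly at the right.

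The 18 members that rose included Rpl34, Rpl26, Rpl31, Rpl36a, Rpl38, Rpl30, Rplp1, Rpl35, Rpl7, Rpl13a, Rpl11, Rpl35a, Rpl41, Rpl15, Rpl12, Rpl5 and Rpl19. The log2 fold changes of the 18 ran from 0.81 to 1.70 and their adjusted p from 0.0253 to 0.0485. These calls did not hold under every setting. With all 6 libraries but with each library's trend with transcript length removed, 0 members passed and the members' median log2 fold change was 0.34. That trend was fitted over all tested genes with a length, the members included. In each of the 6 fits that left out 1 library of either group, 0 members passed as well. Over all tested genes, 57 passed in the reported fit, 0 with the length trend removed and 0 to 3 in each of those 6 fits. The loss of calls was thus not particular to the members. The lowest log2 fold change of the 18 genes in those 6 fits was 0.75. The lowest adjusted p of any member in those 6 fits was 0.0622.

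Genomic sequence upstream of the start of transcription is shown for the 3 tested members with the highest and the 2 with the lowest log2 fold change, so that the ends of the range can be read side by side. Each run covers 100 bases before and 15 after the RefSeq start on GRCm38.p6, 5′ to 3′ on the gene's strand. Capitals mark CTTTCC, a pyrimidine run typical of TOP tracts, or CCGGAAG, the core letters of sites for the ETS family of transcription factors. Both strands were searched for each, and the letters of these motifs can overlap. Only these exact letters are marked, so a gene without a mark may still have a TOP tract. Rpl34 has a second RefSeq start that is not shown.
Rpl34, chr3:130730384-130730498, minus strand: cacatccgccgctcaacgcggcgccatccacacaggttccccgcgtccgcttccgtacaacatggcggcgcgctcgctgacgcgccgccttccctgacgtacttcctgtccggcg
Rpl26, chr11:68901466-68901580, plus strand: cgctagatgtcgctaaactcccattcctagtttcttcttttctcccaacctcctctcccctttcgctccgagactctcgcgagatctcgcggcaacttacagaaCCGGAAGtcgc
Rpl31, chr1:39367751-39367865, plus strand: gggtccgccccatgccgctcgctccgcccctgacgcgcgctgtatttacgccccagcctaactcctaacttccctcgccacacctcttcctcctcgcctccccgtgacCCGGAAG
Rpl28, chr7:4792865-4792979, plus strand: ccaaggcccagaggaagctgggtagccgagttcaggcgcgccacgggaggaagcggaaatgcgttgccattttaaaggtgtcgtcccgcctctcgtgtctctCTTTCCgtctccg
Rplp2, chr7:141447551-141447665, plus strand: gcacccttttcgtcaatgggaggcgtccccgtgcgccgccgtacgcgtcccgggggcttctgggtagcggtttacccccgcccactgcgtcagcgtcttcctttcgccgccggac

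RefSeq promoter windows, 250 bases before to 50 after the start, were at hand for 35 of the 47 members. CTTTCC occurred in 21 of these 35 and in 29.3% of 27025 genes with such a window. Within 30 bases of the start it occurred in 9 of 35 and in 6.44% of all. CCGGAAG occurred in 13 of 35 and in 9.93% of all. AAGATGG, part of the site of the factor YY1, occurred in 3 of 35 and 7.28% of all, and TATAAA in 3 of 35 and 15.7% of all. Among members with a window, CCGGAAG was present in 9 of the 14 that rose and in 4 of the 20 tested ones that did not pass. By the same split, CTTTCC was in 11 of 14 and 10 of 20, and within 30 bases of the start in 5 of 14 and 4 of 20. AAGATGG was in 2 of 14 and 1 of 20, and TATAAA in 1 of 14 and 1 of 20. A difference between members that rose and the others was not tested. All of these are matches of letters on either strand, and not binding sites or TOP tracts in themselves.

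The stalk is the flexible arm that recruits elongation factors. Its base is the protein of Rplp0, with Rpl12 beside it, and it carries dimers of the acidic proteins P1 and P2, encoded by Rplp1 and Rplp2. Of these 4 genes, Rplp1 and Rpl12 rose. Rplp1 (chromosome 9, 61913283 to 61914510, GRCm38) stood at 746, 892 and 1078 CPM in ConA and at 2398, 2291 and 1767 CPM in ConA+SIM. Every ConA+SIM library lay above every ConA library, and the log2 fold change was 1.25 ± 0.20 (SE; edgeR adjusted p = 0.0331). Rpl12 stood at 1240, 1552 and 1766 CPM in ConA and at 3341, 3789 and 2725 CPM in ConA+SIM, again without overlap (1.11 ± 0.19, adjusted p = 0.0403 by edgeR).

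Rplp2, whose protein pairs with that of Rplp1, did not share this pattern. It had the lowest log2 fold change of all tested members. Rplp2 (chromosome 7, 141447651 to 141451359) stood at 806, 509 and 824 CPM in ConA and at 616, 675 and 444 CPM in ConA+SIM. The groups overlapped, since ConA replicate 2 was below 2 of the ConA+SIM libraries. The log2 fold change was -0.30 ± 0.25 (edgeR adjusted p = 0.957), and it was below 0 in all 17 alternative fits, from -0.57 to -0.14. Taken within a library, where scaling has no part, the counts of Rplp2 per count of Rplp1 were 1.08, 0.571 and 0.765 in ConA and 0.257, 0.295 and 0.251 in ConA+SIM. These ratios did not overlap, with means of 0.805 ± 0.257 and 0.268 ± 0.024 (SD, n = 3 per group). The pair was singled out after its values were seen, so the difference is given without a test. The annotated transcripts are 499 nt for Rplp1 and 964 nt for Rplp2. The part of transcript length in this ratio, a matter taken up further on, was not tested.

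Rplp0, often used as a reference gene in quantitative PCR, stood at 2584, 2767 and 3836 CPM in ConA and at 3858, 3821 and 4364 CPM in ConA+SIM. ConA replicate 3 reached the level of the ConA+SIM libraries. The log2 fold change was 0.39 ± 0.17 (edgeR adjusted p = 0.563). Its counts per count of Rplp1 were 3.10 to 3.56 in ConA and 1.61 to 2.47 in ConA+SIM, which did not overlap, whereas those of Rpl12 per count of Rplp1 overlapped, at 1.64 to 1.74 and 1.39 to 1.65.

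**Figure D2:**
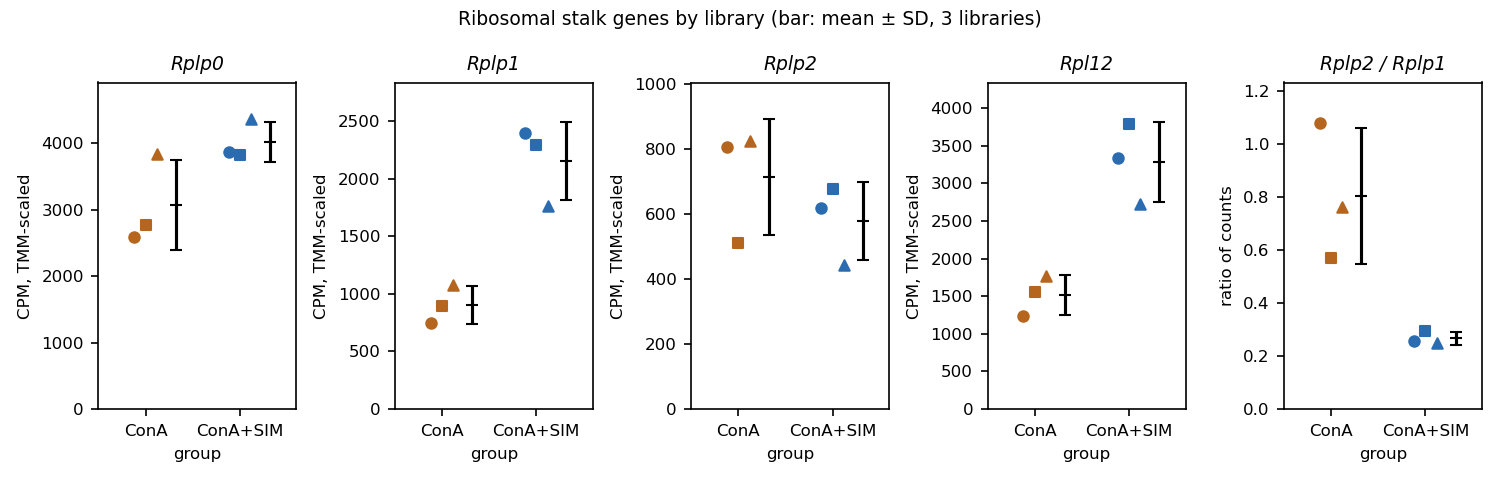
TMM-scaled CPM of the 4 stalk genes and the ratio of Rplp2 to Rplp1 counts, by group, with 1 point per library (circle, square and triangle for replicates 1, 2 and 3) and a bar for the mean ± SD of 3 libraries; each axis starts at 0. Rplp1 and Rpl12 separate the groups, Rplp0 and Rplp2 do not, and the ratio falls from 0.571 or more in ConA to 0.295 or less in ConA+SIM.

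The proteins of Rpl5 and Rpl11 enter the ribosome together with 5S ribosomal RNA, and outside the ribosome this particle binds MDM2, the regulator of p53. Both genes rose. Rpl5 (chromosome 5, 107900508 to 107909005) stood at 1475, 1835 and 1759 CPM in ConA and at 3829, 3193 and 3248 CPM in ConA+SIM (log2 fold change 1.02 ± 0.15, edgeR adjusted p = 0.0331). Rpl11 (chromosome 4, 136049354 to 136053393) stood at 1068, 1052 and 1420 CPM in ConA and at 2767, 3048 and 2289 CPM in ConA+SIM (1.20 ± 0.18, adjusted p = 0.0331 by edgeR). Neither gene's groups overlapped. The counts of Rpl5 per count of Rpl11 overlapped between groups, at 1.24 to 1.75 and 1.05 to 1.42.

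Around the catalytic centre and the tRNA sites, 1 of 5 genes rose. That gene was Rpl36a on chromosome X, whose protein contacts the tRNA exit site. It stood at 446 ± 96.1 CPM in ConA and 1168 ± 247 CPM in ConA+SIM (log2 fold change 1.39 ± 0.23). Rpl36al, an autosomal gene for a nearly identical protein, stood at 322, 142 and 176 CPM in ConA and at 464, 138 and 375 CPM in ConA+SIM, with overlap and a large error (0.61 ± 0.46). Reads of such near-copies can be shared, and the sources used here do not say how they were counted.

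Rpl3 encodes a core protein that reaches towards the peptidyl transferase centre. It stood at 1820, 2011 and 2444 CPM in ConA and at 2427, 2602 and 3048 CPM in ConA+SIM. The lowest ConA+SIM library lay just under the highest ConA library, and the difference did not pass (0.36 ± 0.17, edgeR adjusted p = 0.579). Rpl10, whose protein joins late and completes the tRNA sites, stood at 984, 1101 and 1368 CPM in ConA and at 1646, 1214 and 2093 CPM in ConA+SIM (0.52 ± 0.22, edgeR adjusted p = 0.551), with ConA+SIM replicate 2 inside the ConA range. Rpl8 had a log2 fold change of 0.30 ± 0.17.

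Proteins along and around the exit tunnel contact the growing chain and the factors that wait for it. Of 7 such genes, 4 rose and 3 did not pass, and in all 7 the groups did not overlap. Over all 46 tested members 18 rose and the groups of 32 did not overlap, and a difference between places was not tested. The smallest p of any member was that of Rpl31 (chromosome 1, 39367851 to 39371911), at 784, 719 and 691 CPM in ConA and 2030, 1947 and 1863 CPM in ConA+SIM. The spread within each group was narrow, and the log2 fold change was 1.41 ± 0.15 (edgeR adjusted p = 0.0253). Rpl26 stood at 1027, 1101 and 1424 CPM in ConA and at 3443, 4103 and 3099 CPM in ConA+SIM (1.58 ± 0.18). Rpl35, whose protein sits at the tunnel mouth near the docking site of the signal recognition particle, stood at 678, 658 and 887 CPM in ConA and at 2051, 1719 and 1483 CPM in ConA+SIM (1.24 ± 0.19). The lowest ConA+SIM level was thus well above the highest ConA level in each of these 3 genes.

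Rpl19, which also reaches the small subunit as a bridge, had the smallest rise that passed, from 1739, 1729 and 2080 CPM to 3350, 3257 and 3115 CPM (0.81 ± 0.14, edgeR adjusted p = 0.0485). Rpl23a, the other protein of the docking site, stood at 1376, 1482 and 1503 CPM in ConA and at 2886, 2168 and 2512 CPM in ConA+SIM (0.79 ± 0.16, adjusted p = 0.0755 by edgeR). Rpl17, on chromosome 18, stood at 516, 531 and 680 CPM in ConA and at 1148, 1325 and 919 CPM in ConA+SIM (0.97 ± 0.20, edgeR adjusted p = 0.103). Rpl4, which with Rpl17 lines the narrow part of the tunnel, stood at 3192, 3303 and 3574 CPM in ConA and at 4715, 4336 and 5555 CPM in ConA+SIM (0.54 ± 0.14, adjusted p = 0.234 by edgeR). In these last 3 genes the groups stood apart although the test was not passed.

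**Figure D3:**
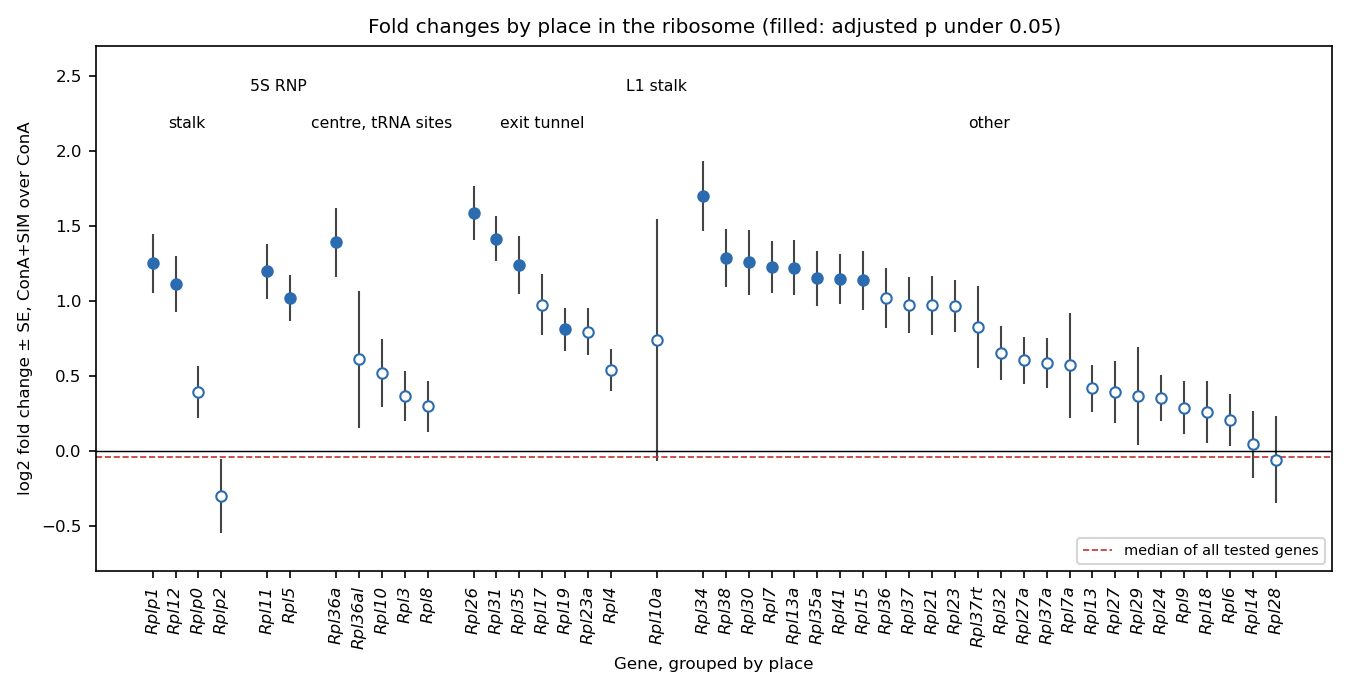
Log2 fold change of ConA+SIM over ConA with its SE for the tested members named in the text, grouped by place in the large subunit (filled points, adjusted p under 0.05; dashed line, median of all tested genes). Filled are 2 of 4 stalk genes, the 2 genes of the 5S particle, 1 of 5 at the centre and tRNA sites, 4 of 7 tunnel genes and some of the others. Rplp2 and Rpl28 are the only points below 0.

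The single gene of the L1 stalk, Rpl10a, did not pass and is described with its copy row further on. Among the other 28 members, outside all of these places, 9 rose, 18 did not pass and Rpl32l was not tested. The largest log2 fold change of all members was that of Rpl34 (chromosome 3, 130726827 to 130730398), at 326, 514 and 356 CPM in ConA and 1529, 1295 and 1055 CPM in ConA+SIM (1.70 ± 0.23, edgeR adjusted p = 0.0301). Rpl7 stood at 1777, 2003 and 2389 CPM in ConA and at 5724, 4260 and 4429 CPM in ConA+SIM (1.22 ± 0.17). The protein of Rpl13a is known also for a role outside the ribosome, in blocking translation of inflammatory messages after interferon gamma. Rpl13a stood at 2364, 2743 and 2968 CPM in ConA and at 6252, 7703 and 4858 CPM in ConA+SIM (1.22 ± 0.18, edgeR adjusted p = 0.0331).

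Rpl41, which encodes one of the shortest proteins of the cell, stood at 1308, 1211 and 1610 CPM in ConA and at 2712, 3465 and 2955 CPM in ConA+SIM (1.15 ± 0.17). Rpl38, linked in mice to translation of Hox messages, rose by 1.28 ± 0.19 on the log2 scale. Rpl35a and Rpl15, both among the genes mutated in the human anaemia of Diamond and Blackfan, rose by 1.15 ± 0.18 and 1.14 ± 0.20. Rpl30 rose by 1.26 ± 0.22. Just short of the threshold, Rpl23, Rpl36, Rpl37 and Rpl21 had log2 fold changes of 0.96 ± 0.18, 1.02 ± 0.20, 0.97 ± 0.19 and 0.97 ± 0.20, with adjusted p of 0.0592 to 0.0972 by edgeR and no overlap between groups.

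At the other end stood Rpl28, Rpl14 and Rpl6. Rpl28 was at 746, 751 and 1343 CPM in ConA and at 999, 1096 and 633 CPM in ConA+SIM (log2 fold change -0.06 ± 0.29). ConA replicate 3 was its highest library, and without it the log2 fold change was 0.31. Rpl14 was at 555, 719 and 968 CPM in ConA and at 791, 829 and 690 CPM in ConA+SIM (0.04 ± 0.22). Rpl6 was at 1527, 1582 and 1717 CPM in ConA and at 1688, 1606 and 2273 CPM in ConA+SIM (0.21 ± 0.17). In all 3 the ranges overlapped, and the tests did not pass (edgeR adjusted p of 0.961 to 0.999).

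The log2 fold changes of the other members that did not pass were 0.82 for Rpl37rt, named as a retrotransposed copy of Rpl37, 0.65 for Rpl32, 0.60 for Rpl27a, 0.59 for Rpl37a, 0.57 for Rpl7a, 0.42 for Rpl13, 0.39 for Rpl27 and 0.37 for Rpl29. They were 0.35 for Rpl24, 0.29 for Rpl9 and 0.26 for Rpl18. Rpl7a varied most between replicates among these, from 204 to 588 CPM within ConA. Rpl10a, whose protein forms the mobile L1 stalk by the tRNA exit, was at 26.0, 15.1 and 22.0 CPM in ConA and at 47.9, 12.9 and 44.6 CPM in ConA+SIM. A second row for the same symbol held 30.3, 43.7 and 34.2 CPM in ConA and 87.1, 64.4 and 62.4 CPM in ConA+SIM, and how reads were divided between these rows was not tested.

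Replicate libraries of a group did not stand equally high. Within ConA, replicate 3 held the highest value of 34 of the 46 tested members and replicate 1 the lowest of 28. Within ConA+SIM, the highest value was in replicate 1 for 20 members, in replicate 2 for 16 and in replicate 3 for 10. The coefficient of variation between replicates had a median over members of 16.4% in ConA and 15.2% in ConA+SIM, with a range of 2.37% to 55.0% over both groups. Per kilobase of annotated transcript, the mean level was highest for Rpl41 in both groups, at 3149 ± 476 CPM per kb in ConA and 6966 ± 880 in ConA+SIM (SD, n = 3 per group). In ConA it was followed by Rpl23a at 2596 ± 122, Rpl13a at 2570 ± 292 and Rpl19 at 2462 ± 266 CPM per kb, whose means differed by less than the SD of Rpl19 or of Rpl13a. Rpl26 was number 6 in ConA, at 2251 ± 401, and number 2 in ConA+SIM, at 6746 ± 971 CPM per kb. The lowest tested members in both groups were Rpl10a, Rpl37rt and Rpl21, at 25.4, 175 and 190 CPM per kb in ConA and 42.4, 310 and 372 in ConA+SIM. These values depend on the transcript chosen for each gene.

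Transcripts of ribosomal protein genes are short, and short transcripts of other genes also had higher values in ConA+SIM. The annotated transcript of a tested member was 383 to 2045 nt long, with a median of 832 nt, against 2964 nt for all tested genes with a length. Outside the ribosomal protein genes, the median log2 fold change was 0.64 for transcripts up to 750 nt, 0.31 up to 1500 nt, 0.04 up to 3000 nt, -0.17 up to 6000 nt and -0.36 above that. Of 2828 other genes within the members' range of lengths, 15 rose, or 0.530%, and their median was 0.26. Of the 527 of these with a mean of at least 100 CPM, the same 15 rose, or 2.85%, with a median of 0.37. The members' own values were 18 of 46 and 0.82, and the part of transcript length in them was not tested beyond the fits that follow.

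When each library's trend with transcript length was removed before the test, the members' median fell to 0.34, and it was 0.32 when the trend with GC content was removed as well. In both fits 0 members and 0 of all tested genes passed. The log2 fold change was then above 0 in 31 and 33 of 46 members instead of 44, and all 18 members that rose stayed above 0 in both. Those 18 had been picked by their high values in the same libraries, so this is a description and not independent support. Loss of a call did not always go with a smaller log2 fold change. With length offsets that of Rpl15 went from 1.14 to 1.19 and that of Rpl19 from 0.81 to 0.31. Over all 17 alternatives the lowest log2 fold change of Rpl34, for example, was 1.03, that of Rpl31 0.84 and that of Rpl19 0.31. Among the members themselves, log2 fold change and the logarithm of transcript length were related weakly, with Pearson's r = -0.17 over 46 genes, and for coding length r = -0.34 over 45 genes. These genes share the same 6 libraries, so the correlations are descriptions. The 25 members with a coding length up to 500 nt had a median log2 fold change of 0.97, with 11 called, and the 20 longer ones 0.55, with 7 called. The median coding length was 405 nt in members that rose and 480 nt in those that did not pass. For the whole transcript the order was the other way, at 859.5 and 814.5 nt.

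**Figure D4:**
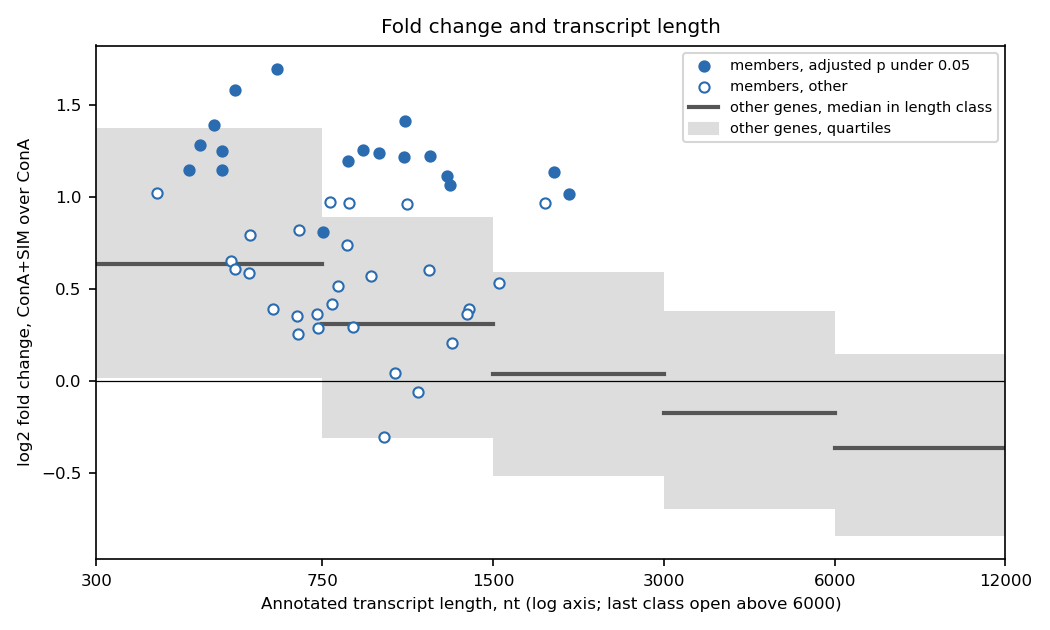
Log2 fold change against annotated transcript length on a log axis for the tested members (filled blue, adjusted p under 0.05), over the median (dark line) and quartiles (grey) of genes outside the ribosomal protein families in 5 length classes. The median of the other genes goes from 0.64 in the shortest class to -0.36 in the longest. The 18 filled points are at 0.81 or more, so each necessarily lies above the median of its class.

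Among the rows left out of the family by its rule, Rpl22, its paralog Rpl22l1 and Rpl39 rose, by 1.49, 1.67 and 1.41 on the log2 scale, and Rpl7l1 did not pass (-1.21). Other genes of ribosome production were read from lists, beside a share over all tested genes of 0.542% that rose and 0 that fell. Of 32 tested small subunit genes, 16 rose and 0 fell, with a median of 1.04, and examples were Rps27 (1.53 ± 0.19), Rps24 (1.06 ± 0.14) and Rps7 (1.45 ± 0.19). Other TOP messages, mostly for translation factors, held 19 tested genes, of which 2 rose and 0 fell, with a median of 0.28. These were Tpt1, the translationally controlled tumour protein gene, at 3693 ± 303 and 9169 ± 1039 CPM (1.31 ± 0.14), and Eif3e, an initiation factor subunit gene (1.15 ± 0.19). Of 57 large subunit biogenesis factors 0 passed, 37 were above 0 and 20 below, and the median was 0.26. Over all tested genes, 48% were above 0 and the median was -0.04. Given the share of all genes that rose, 0 calls in a list of this size do not set it apart. The lowest p-values in that list were those of the nucleolar chaperone gene Npm1 (0.86 ± 0.21) and of Mdn1, the remodelling ATPase of the large subunit (-1.84 ± 0.47), which had adjusted p of 0.202 and 0.223 by edgeR.

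Of 19 tested genes of ribosomal RNA transcription, 0 passed, and the median was -0.05. The lowest p-values there were those of Taf1d (1.20 ± 0.27) and Tcof1 (-1.02 ± 0.34). Of 18 tested genes that control TOP messages, such as mTOR complex members and LARP1, 0 passed, 5 were above 0 and 13 below, and the median was -0.27. With 0.542% of all tested genes called higher and 0 lower, 0 calls do not set lists this short apart. Cnbp, which binds TOP tracts, stood at 660 ± 75.3 and 1260 ± 101 CPM (0.93 ± 0.17, edgeR adjusted p = 0.0577), and Tsc2, a brake on mTOR, at 81.3 ± 17.2 and 24.0 ± 12.5 CPM (-1.76 ± 0.54, edgeR adjusted p = 0.335). The median transcript lengths were 776 nt in the small subunit list, 1794 nt among other TOP messages, 2432 nt among biogenesis factors and 4734 nt among the TOP control genes.

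Other tests of the same counts gave more calls among the members. DESeq2 called 30 of them higher, limma-voom 25 and voom with sample quality weights 24, each with 0 lower, against 6.78%, 1.03% and 1.05% of all genes with an adjusted p called higher and 3.82%, 0.0666% and 0.0381% called lower. All 18 edgeR calls were among those of each of these tools. Computing the scaling factors without ribosomal protein genes left 16 of the 18 calls, without Rpl15 and Rpl19, and a median of 0.81.

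**Figure D5:**
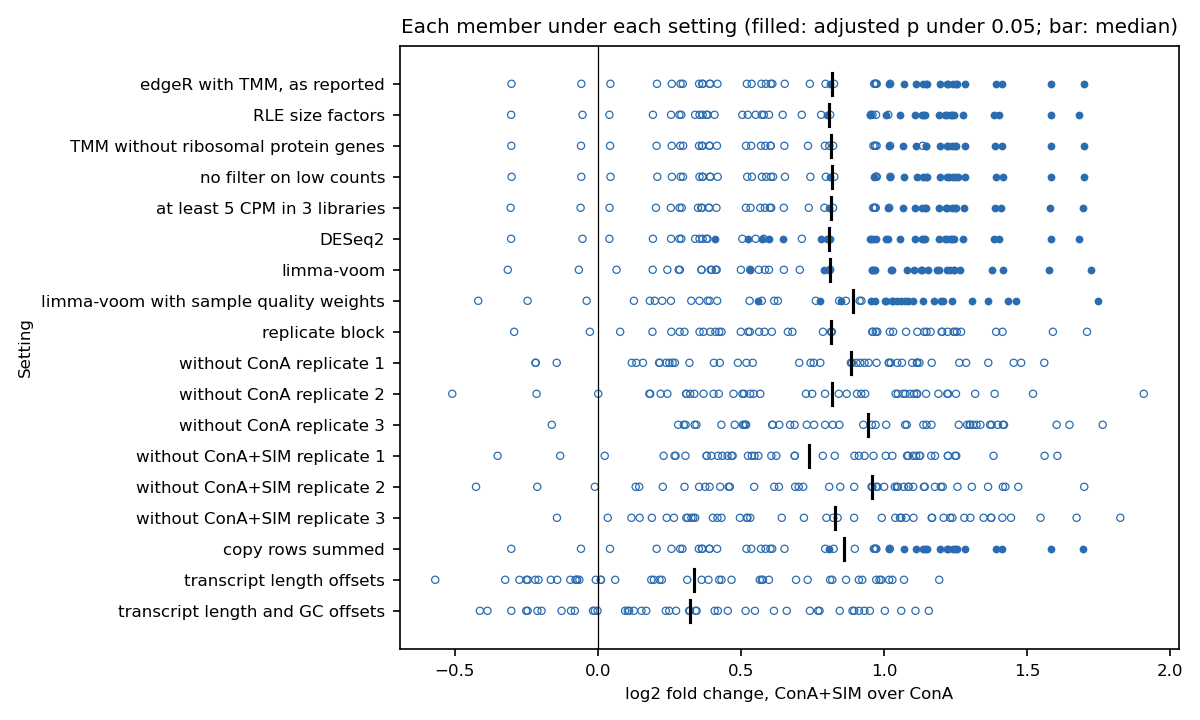
Log2 fold change of each tested member (filled, adjusted p under 0.05; bar, median) under the reported fit and 17 alternatives. The bars lie between 0.74 and 0.96 except with transcript length offsets, where they are at 0.34 and 0.32, and no point is filled there, with the replicate block or in the 6 fits that leave out a library.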

How the data were processed

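The deposited values are raw read counts by gene, in a single table, with no normalization by the authors. HISAT2 2.1.0 and GRCm38 were used, per the submitters' processing notes. For the counting tool, annotation release, strand setting and handling of multimapping reads, the sources used here give nothing. Column names equal the sample titles, and 0 columns were left unused.

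Genes were kept with filterByExpr of edgeR 4.0.16 in R 4.3.3, scaled by TMM and tested with the robust quasi-likelihood test, with group as the only term. Adjustment followed Benjamini and Hochberg over 10509 genes, with a threshold of 0.05. SE is the log2 fold change divided by the root of F. The common biological coefficient of variation was 1.12. A row at 0 counts allows up to 3 counts, 0.120 to 0.171 CPM, for counting error only. The procedure was run on simulated counts, with the spread between libraries capped and fold changes larger than that of any member. That run therefore does not show how well changes of the members' size are found.

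Coordinates are from RefSeq on GRCm38.p6, which matched all 47 members. Lengths are from GENCODE M21, 1 transcript per gene, preferring those linked to a curated RefSeq transcript. Offsets removed each library's loess trend (span 0.4), fitted over all tested genes with a length, the members included. The members, gene lists and tests were chosen with earlier results of these data known. Values in every library are given for stalk, 5S, Rpl3, Rpl10, tunnel, Rpl13a, Rpl41 and Rpl36al genes, the 4 smallest p-values and the 4 lowest log2 fold changes. In other lists, genes that passed (at most 3) or the 2 with the smallest p are named. The marker lists were T cell, CD8 T cell, NK cell, B cell, hepatocyte, macrophage, sinusoidal endothelial, erythroid and neutrophil. Alternatives used limma 3.58.1 and DESeq2 1.42.0, which gave no adjusted p for 5302 genes, 1 of them a member. The values of 1 member and 1 marker are not reported singly here; both stay in the fits and counts.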

Additional observations from a re-analysis of the deposited data

How the results depend on the processing

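Over 17 alternatives the members' median log2 fold change stayed above 0, from 0.32 to 0.96. The 18 member calls and 57 calls over all genes became 30 and 353 with DESeq2. Limma-voom gave 108 calls over all genes and quality weights 110. Genes called lower, 0 by edgeR, numbered 199 with DESeq2, 7 with limma-voom, 4 with quality weights, 1 with RLE and 1 without a filter. Leaving out 1 library gave 0 member calls each time and 0 to 3 calls over all genes. With transcript length offsets, with or without GC, there were 0 of either and the median was 0.34 or 0.32; they moved the median of all tested genes from -0.04 to 0.10 and 0.06. With the replicate number as a block there were 0 member calls and 0 calls over all genes, with a member median of 0.82. Same-numbered libraries did not deviate together (correlations of 0.011, 0.0088 and 0.033). The labels do not say whether equal numbers share an animal or day, and these correlations cannot settle it. Not every library correlated best with its own number. Adding copy and pseudogene rows changed the rise in the members' share from 3.02 to 3.04 percentage points.

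No member called higher changed sign, but these fits reuse the libraries in which those members were called. With length offsets Rpl10a became -0.0078, Rpl36al -0.32, Rpl37a -0.14, Rpl10 -0.073, Rpl13 -0.079, Rpl27 -0.27, Rpl29 -0.097, Rpl24 -0.25, Rpl8 -0.074, Rpl9 -0.16, Rpl18 -0.22, Rpl6 -0.065 and Rpl14 -0.25. With length and GC offsets Rpl23a became -0.0015, Rpl32 -0.011, Rpl36al -0.39, Rpl37a -0.30, Rpl10 -0.094, Rpl27 -0.21, Rpl24 -0.25, Rpl9 -0.25, Rpl18 -0.017, Rpl6 -0.081 and Rpl14 -0.20. Rpl14 was -0.040 with quality weights, and from -0.14 to 0.30 when 1 library was left out, below 0 without ConA replicate 1 (-0.14) or ConA+SIM replicate 2 (-0.011). Rpl28 was 0.31 and 0.15 without ConA replicate 3 or ConA+SIM replicate 3. The cause was not tested, beyond the fewer samples or the removed trend of each fit.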
